A study of Mus musculus with 10 samples.

Results

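Hepatocyte-derived peripheral cholangiocytes (HpC) of mouse liver were compared with ordinary peripheral cholangiocytes (pC). The comparison took the 4 libraries titled HpC1 to HpC4 and the 3 titled pC1 to pC3, 7 of the 10 libraries of the series. The other libraries, H1 to H3, are hepatocytes, given here as a reference level. They are not part of the difference between HpC and pC. They did enter the scaling, the choice of genes tested and the estimate of spread behind each p. HpC and H came from Alb-Cre+/-;Rbpjf/f;Hnf6f/f mice and pC from Rbpjf/f;Hnf6f/f mice without Cre, all on a mixed C57BL/6, FVB and CD1 background. Every group therefore carries the floxed alleles, and between HpC and pC the origin of the cells and the presence of Cre cannot be told apart. Cre is driven by the albumin promoter, which is active in hepatocytes and their precursors. The mice were adult, with ages in postnatal days of P124, P151, P144 and P139 for HpC1 to HpC4, P151, P119 and P142 for pC1 to pC3, and P134, P139 and P139 for H1 to H3. HpC and pC were sorted by flow cytometry from nonparenchymal cells after digestion with collagenase, accutase and trypsin, and H after collagenase perfusion alone; the sources used here do not give the sort markers. The title of the series speaks of a biliary system formed by hepatocytes through TGF-beta, and the comparison addresses how such cells differ from ordinary cholangiocytes.

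Cholangiocytes are the epithelial cells of the bile ducts, and peripheral ones form the small ducts inside the liver. In development they arise from hepatoblasts beside the portal vein, where Notch signals acting through RBPJ, together with transcription factors such as HNF6 (the product of Onecut1) and SOX9, set the biliary fate. Mature cholangiocytes modify bile, carry immunoglobulin A into it, and answer cytokines by displaying antigen-presenting molecules and releasing chemokines.

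Values are TPM (a relative abundance within a library, corrected for transcript length), summed per gene and rescaled between libraries. Differences are HpC minus pC on the log2(rescaled TPM + 1) scale, written with their standard error (SE), and a gene passed where limma's p, adjusted over all genes tested, was under 0.05. The added 1 is a pseudocount, and such differences understate the changes of genes with low values. A gene was tested where 3 or more libraries reached 1 TPM, called the level filter below. Genes near 0 in 1 group could meet it only through another group, so such calls rest in part on the filter. Both HpC1 and HpC2 stood apart. The summed level of 23 pancreatic acinar genes was 351485 rescaled TPM in HpC1 and at most 1603 in the other HpC libraries, and that of 25 stratified squamous genes was 43352 in HpC2, 266, 977 and 735 in HpC1, HpC3 and HpC4 and 84.2 to 138.9 in pC. Of 8 squamous genes tested, Sprr1a was higher, and 3 were higher without HpC2. Most of the squamous sums in HpC1, HpC3 and HpC4 came from Sprr1a, which is also among the largest rises below. Of the genes tested, 0.474% were over 4-fold higher in HpC1 than in each of the other 6 cholangiocyte libraries and 0.84% in HpC2, against 4 genes or fewer in each of the rest. Mitochondrial genes took 5.78% of the TPM in HpC1 and 10.5% to 14.4% in the other cholangiocyte libraries. Results are therefore also given without both. The labelled identity was checked against 15 cholangiocyte markers: 2 were lower in HpC, Spp1 among them, and none was higher, with a median difference of -0.42. Without HpC1 and HpC2, 3 were higher (Krt7, Krt19 and Cldn4, named after their values were seen) and 1 lower (Spp1), with a median of -0.07. Krt19, a defining duct keratin, stood at 382 to 941 rescaled TPM in HpC, 407 to 539 in pC and 0.183 to 0.471 in H. None of 15 hepatocyte markers passed, but 14 differed by more than 0. Their median difference was 0.87 (0.42 without HpC1, 0.91 without HpC2 and 0.43 without both). Their summed level was 3215 to 6372 in HpC and 1179 to 2758 in pC, without overlap. Their part in the results was not tested. In sorted bulk RNA, fewer cells with a transcript and less of it per cell cannot be told apart.

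**Figure D1:**
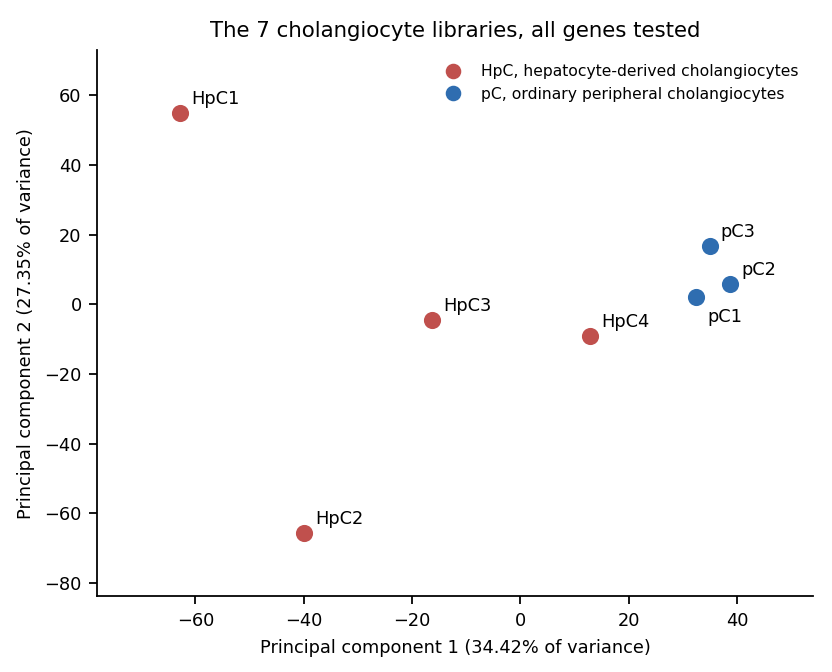
Principal components 1 and 2 of the log2(rescaled TPM + 1) values of the genes tested, 1 point per cholangiocyte library, with the share of variance on each axis (34.42% and 27.35%). The 3 pC libraries lie together, HpC4 and HpC3 come next along component 1, and HpC1 and HpC2 lie far from these, at opposite ends of component 2.

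Of 14765 genes tested, 671 (4.54%) differed between HpC and pC, 294 (1.99%) higher and 377 (2.55%) lower in HpC. By at least 2 on the log2 scale, 65 were higher and 48 lower. In all 671 the 4 HpC libraries did not overlap the 3 pC libraries, which was so for 16.5% of the genes tested (HpC above in 6.78% and below in 9.72%). Without HpC1 and HpC2, 316 were higher (2.18%) and 243 lower (1.68%) of 14477 tested, and 386 of the 671 passed again in the same direction. Without HpC1 alone, 292 (1.99%) were higher and 347 (2.36%) lower, and without HpC2 alone 364 (2.49%) and 314 (2.15%). Leaving out 1 other library moved a share of called genes by over 1.5 times for pC2 (0.95% higher and 0.915% lower), pC1 (1.1% higher and 1.18% lower), HpC3 (1.32% higher and 1.54% lower) and, among lower genes, pC3 (1.56%). In all, 240 genes passed whichever of the 10 libraries was left out. On TPM as deposited, without rescaling, 0.975% were higher and 2.76% lower, and the median difference over all genes was -0.36 in place of -0.01.

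The genes named next were protein-coding, passed again without HpC1 and HpC2 and reached a mean of 10 rescaled TPM in the higher group. They were also taken only where HpC and pC did not overlap, so the lack of overlap is no result. The largest rise was that of Lgr6, a receptor for R-spondins that marks stem cells of several epithelia. It stood at 21, 20.8, 37.9 and 34.6 rescaled TPM in HpC1 to HpC4, 0.772, 0.572 and 0.900 in pC1 to pC3 and 0 to 0.0476 in H, a difference of 4.03. Lgr6 met the level filter only with the HpC libraries, where it is high, so no test of its level is given. Cd36, a fatty acid translocase, stood at 108, 42.4, 74.5 and 100.5 in HpC and 3.49, 5.25 and 3.78 in pC (3.92 ± 0.30, adjusted p = 0.000188). Its HpC levels spanned those of hepatocytes, 49, 69.8 and 62.4. Bst1, a cell surface enzyme that makes cyclic ADP-ribose, stood at 57, 53.5, 76.3 and 88.6 against 5.14, 3.00 and 2.95 (3.9 ± 0.22, adjusted p = 2.44e-05), and at 0 to 0.0595 in H. The cornified envelope gene Sprr1a stood at 165, 489, 815 and 543 against 35.9, 23.2 and 57.6. HpC2, the library with squamous transcripts, was not the highest, and the part of squamous cells in this rise was not tested. Zfp57, a zinc finger protein that keeps methylation at imprinted loci, stood at 19.6, 20.6, 30.2 and 42.7 against 1.25, 0.0804 and 6.10, and at 0 in H. Like Lgr6, it met the level filter only with the HpC libraries, so no test of its level is given.

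Other rises concerned secreted and signalling proteins. The basement membrane gene Nid1 stood at 20.7, 12, 19.6 and 12.7 against 0.783, 0.627 and 0.454 (3.38 ± 0.25, adjusted p = 0.000165). Edn3, an endothelin, stood at 8.69 to 21.4 against 0.234 to 1.39, Plat, tissue plasminogen activator, at 10.5 to 19.9 against 0.604 to 1.35, and the ligand gene Wnt10a at 6.84 to 15.7 against 0.0914 to 1.05. The groups did not overlap in any of these, as the rule for naming required, and pC alone met the level filter in none of them. Aff2, a nuclear protein gene, Dpysl3, which encodes a cytoskeletal protein, and Arhgap22, a regulator of small GTPases, rose by 2.93, 2.66 and 2.66. Aff2 met the level filter only with the HpC libraries, so no test of its level is given. The rest of the 15 largest rises were genes that hepatocytes express strongly. Hp (haptoglobin) stood at 251, 109.7, 118.6 and 65.1 in HpC, 15.1, 22 and 4.76 in pC and 2944, 3542 and 3216 in H. Gc (vitamin D-binding protein) stood at 104 to 305, 13.1 to 43.3 and 4031 to 4441, and the steroid dehydrogenase gene Hsd17b2 at 8.93 to 28.1, 0.973 to 2.23 and 96.2 to 126. In these 3, every HpC library lay below every H library and, as the rule for naming required, above every pC library. Apart from Lgr6, Zfp57 and Aff2, whose tests are not given, the 15 largest rises passed whichever library was left out. As the rule for naming required, they also passed without HpC1 and HpC2.

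By the same rule, the largest fall was that of Pigr, the receptor that carries immunoglobulin A across the epithelium. It stood at 44.1, 12, 16 and 3.69 in HpC, 343, 485 and 239 in pC and 897, 984 and 1137 in H (-4.54 ± 0.60, adjusted p = 0.00298). Hes1, a repressor induced by Notch, stood at 61.1, 54.2, 61.2 and 73.3, 759, 563 and 291 and 24.9, 13.6 and 21.2 in the same order (-2.99 ± 0.31, adjusted p = 0.000924). The HpC libraries were close to each other in Hes1 and, as the rule for naming required, all lay below the lowest pC library. Tmod1, which caps actin filaments, stood at 1.34, 0.667, 0.778 and 1.09 against 17.6, 16.9 and 16.5 (-3.2 ± 0.16, adjusted p = 2.44e-05). The small GTPase gene Rhoj stood at 8.29, 5.76, 5.51 and 5.85 against 74.8, 54.7 and 59.4 (-3.12 ± 0.21, adjusted p = 8.1e-05). In H these last 2 stood at 0 and 0 to 0.529.

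Further falls included Rgs2, a brake on G protein signalling (19.1 to 37.4 against 132 to 223), and Atoh8, a helix-loop-helix transcription factor (2.84 to 7.51 against 20.2 to 57.3). Cyp4f14, a cytochrome P450, stood at 1.28 to 5.07 in HpC, 23.5 to 32.2 in pC and 22.7 to 27.8 in H, so that HpC was below both. Gm12185 (0.623 to 2.52 against 17.2 to 39.7), Dpysl4 (0.224 to 2.12 against 10.4 to 17) and Angptl1 (0.549 to 1.33 against 5.53 to 13.2) also fell. Ppp1r1b, which encodes an inhibitor of protein phosphatase 1, stood at 2.08 to 8.08 against 15.8 to 61.2; its call ended when pC1 or pC2 was left out (adjusted p up to 0.0651) and in a fit of the HpC and pC libraries alone (adjusted p = 0.0501). The remaining 4 of the 15 largest falls were class II histocompatibility genes.

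**Figure D2:**
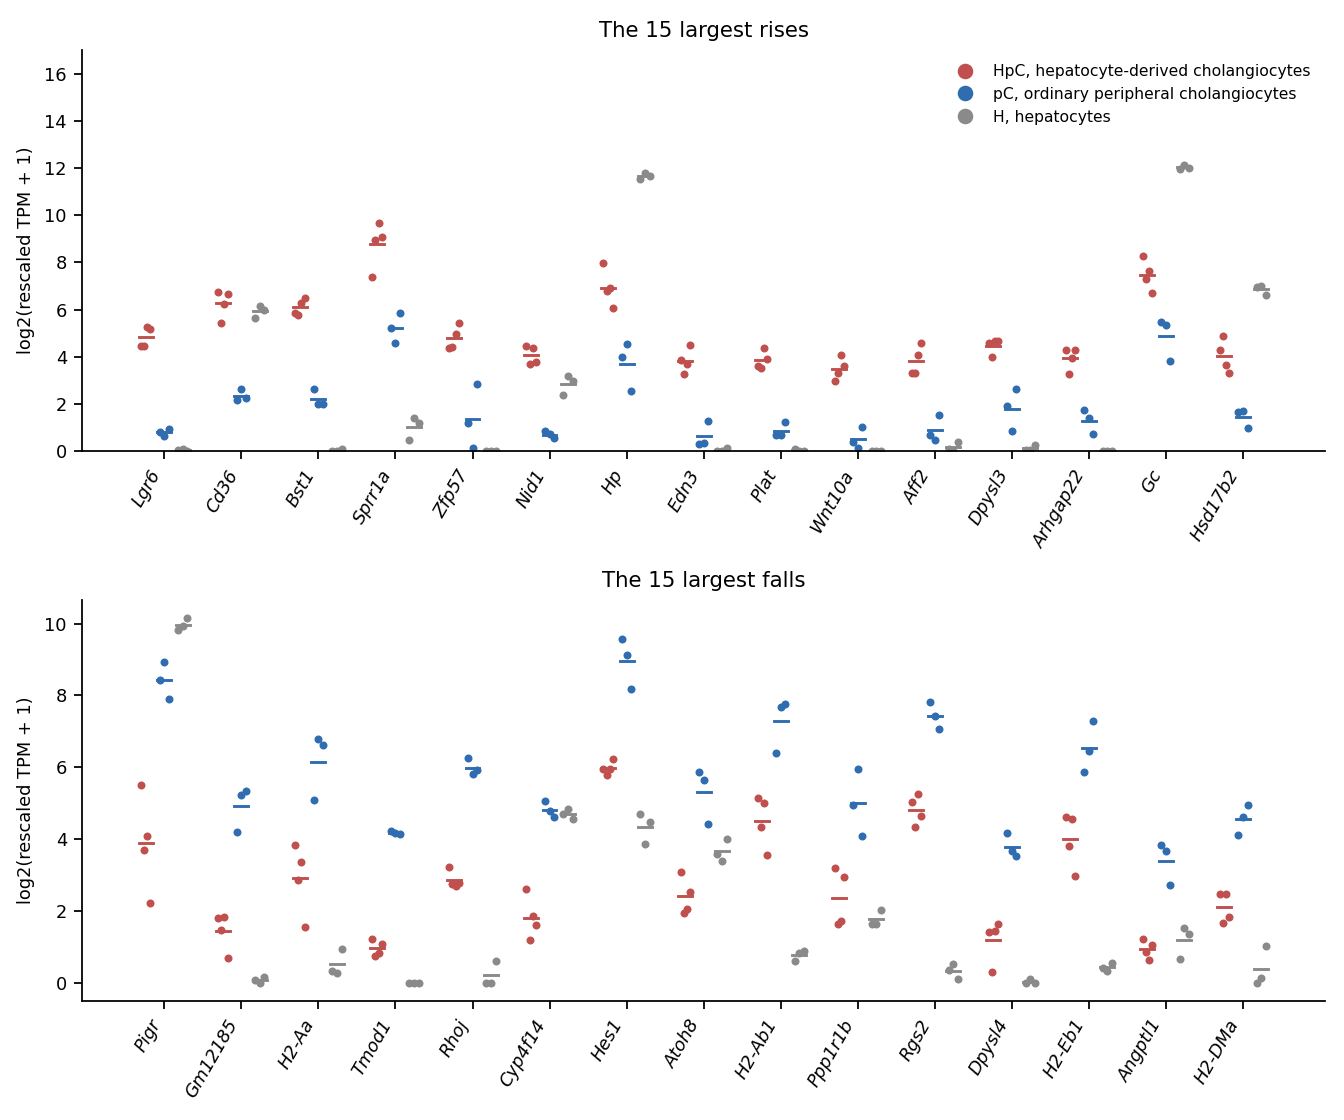
Levels of the 15 genes with the largest rises and the 15 with the largest falls as log2(rescaled TPM + 1), with 1 point per library of HpC, pC and H and a line at each group mean. In each of the 30 genes the HpC points all lie on one side of the pC points, as the rule for naming required. Hp, Gc and Hsd17b2 are highest in H.

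Most tested genes of class II antigen presentation fell. Class II molecules display peptides to CD4+ T cells, and the coactivator CIITA drives their genes. Of 16 genes in the list, 11 were tested, 8 were lower in HpC and none was higher, against 2.55% lower among all genes. The median difference was -2.37, beside -0.01 over all genes. H2-Aa, an alpha chain, stood at 13.3, 6.31, 9.29 and 1.95 in HpC, 32.8, 109.8 and 96.5 in pC and 0.199 to 0.909 in H (-3.25 ± 0.55, adjusted p = 0.00879). Its partner chain H2-Ab1 stood at 34.2, 19.2, 31.2 and 10.9 against 82.9, 204 and 218 (-2.77 ± 0.42, adjusted p = 0.00521), and H2-Eb1 at 6.90 to 23.6 against 56.9 to 156. In all 3, HpC4 was the lowest cholangiocyte library. The peptide-loading genes H2-DMa (2.17 to 4.59 against 16.2 to 29.9) and H2-DMb1 (1.5 to 2.73 against 9.11 to 20.1) fell by 2.45 and 2.39 on the log2 scale.

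The other called members lay outside the rule for naming and are named after their values were seen. Ciita, counted among the lower genes, stood at 0.539, 0.395, 0.671 and 0.595 against 3.27, 4.57 and 9.86. It met the level filter only through libraries outside HpC, so no test of its level is given. Cd74, the invariant chain, stood at 106 to 184 against 371 to 1083, and H2-DMb2 at 2.41 to 4.13 against 9.36 to 32.5. The tested members that did not pass were Ctss, Ifi30 and Cd40, with differences of -0.44, 0.30 and 1.13. Without HpC1 and HpC2, 7 of the list were lower and 1 was higher (Cd40, by 1.48). H2-Aa missed the threshold when pC2 was left out (adjusted p = 0.0523) and H2-DMa with a pseudocount of 0.1 (adjusted p = 0.0703). Class II genes have near-identical copies among which short reads may be split, so single values are uncertain.

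Leukocytes also express class II genes, and their markers were read beside these. Of 7 general leukocyte markers 4 were tested and none passed; the summed level was 0.672 to 9.58 in HpC and 2.34 to 6.40 in pC, and Ptprc, the defining one, stood at 0 to 0.429 against 0.0594 to 0.421. Of 8 dendritic cell markers only Zbtb46 was tested, at 2.76 to 8.41 against 5.18 to 12 (adjusted p = 0.651), and Itgax stood at 0 to 0.0997 against 0.0108 to 0.0357. Of 11 macrophage and Kupffer cell markers 9 were tested and none passed, with a median difference of -0.20 and a summed level of 17.1 to 48 in HpC and 28.7 to 39 in pC; the Kupffer cell genes Cd5l and Clec4f stood at 0.322 to 4.38 against 2.28 to 4.56 and 0.631 to 4.33 against 1.63 to 4.79. Of 9 B and plasma cell markers 2 were tested and none passed; their sum was 64.4 to 597 in HpC and 6.68 to 79.7 in pC, most of it the immunoglobulin light chain gene Igkc (549, 67.1, 383 and 63.5 against 65.5, 13 and 6.27; 3.2 ± 0.90, adjusted p = 0.0829), and the B cell receptor gene Cd79a stood at no more than 0.274 in any cholangiocyte library. The part of leukocytes in the result was not tested.

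Promoters of class II genes are shown because these genes moved together. They were searched for the Y box, read as TGATTGG on either strand, in the 200 bases before the RefSeq transcription start (GRCm38.p6). The motif was in 6.55% of 32817 such windows, and in windows of 4 of the 5 called class II genes that had an entry (H2-Aa, H2-Eb1, H2-DMb1 and H2-DMb2, but not H2-DMa). A match describes letters and is not a measured site, and members that were not called were not searched. The windows of 3 of them follow, 5′ to 3′ on the strand of the gene, with the Y box in capitals:
H2-Aa: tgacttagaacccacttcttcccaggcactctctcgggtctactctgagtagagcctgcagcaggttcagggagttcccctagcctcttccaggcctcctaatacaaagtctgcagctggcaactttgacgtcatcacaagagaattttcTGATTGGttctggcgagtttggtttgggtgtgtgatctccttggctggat
H2-Eb1: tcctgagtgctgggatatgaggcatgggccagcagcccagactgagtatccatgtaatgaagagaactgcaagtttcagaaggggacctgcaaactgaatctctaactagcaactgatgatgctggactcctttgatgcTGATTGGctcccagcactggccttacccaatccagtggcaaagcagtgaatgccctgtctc
H2-DMb1: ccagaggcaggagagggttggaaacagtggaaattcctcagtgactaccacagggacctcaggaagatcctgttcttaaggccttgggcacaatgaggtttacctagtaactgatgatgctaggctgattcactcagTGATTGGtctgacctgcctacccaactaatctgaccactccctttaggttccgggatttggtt
They lie at chr17:34287824-34288023 on the minus strand (H2-Aa), and at chr17:34305667-34305866 (H2-Eb1) and chr17:34152991-34153190 (H2-DMb1) on the plus strand. The Y box lay 50, 61 and 63 bases before the start.

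Class I molecules display peptides from inside the cell to CD8+ T cells. Of 19 genes of class I antigen processing that were tested, 8 were lower, against 2.55% of all genes, and none higher, with a median difference of -1.02. Tap1, which pumps peptides into the endoplasmic reticulum, stood at 27.3, 27.6, 27 and 28 in HpC, 56.4, 85.1 and 110.4 in pC and 29.1, 31.9 and 22.3 in H (-1.53 ± 0.22, adjusted p = 0.00367). The 4 HpC libraries were nearly level and within the range of hepatocytes. The immunoproteasome subunit gene Psmb9 stood at 4.79 to 7.90 against 20.6 to 27.7 (-1.71 ± 0.22, adjusted p = 0.00254). H2-M3 (1.39 to 2.56 against 5.37 to 8.63) and Psmb8 (26.8 to 43.3 against 64.9 to 96.1) also fell, Psmb8 not without HpC1 and HpC2 (adjusted p = 0.0601). H2-K1, a classical heavy chain, stood at 179.9, 121, 216 and 209.8 against 325, 1355 and 466, highest in pC2. Its call ended when any 1 library but pC1 was left out (adjusted p up to 0.102) and without HpC1 and HpC2 (adjusted p = 0.211). Without those 2 libraries 3 of the list were lower and none higher. Heavy chain genes are near-identical copies, so H2-K1 is uncertain as a value of 1 gene.

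Interferon response genes fell in part. Of 37 in the list 35 were tested, 12 were lower, against 2.55% of all genes, and none higher, with a median difference of -0.61. Igtp, a GTPase induced by interferon gamma, stood at 10.1 to 17.6 in HpC, 46.3 to 99 in pC and 44.8 to 95.4 in H (-2.22 ± 0.31, adjusted p = 0.00358). The related GTPase genes Irgm2 (-1.91) and Iigp1 (-1.89) also fell. Irf1, a transcription factor, stood at 164, 123, 232 and 322 against 454, 728 and 752 (-1.67 ± 0.33, adjusted p = 0.0195), but missed the threshold when pC2 or pC3 was left out (adjusted p up to 0.0976) and without HpC1 and HpC2 (adjusted p = 0.0804). Other members, picked after their values were seen, did not pass: Isg15 differed by -0.44, Ifit3 by -0.58, Oas1a by 0.07 and Rsad2 by 0.01, and the chemokine gene Cxcl10 overlapped at 26.7 to 87.3 against 42.9 to 62.1. With HpC1 and HpC2 left out, 6 were lower and none higher. Igtp and Irgm2 overlap in the annotation and are alike upstream, so each is uncertain on its own.

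The same windows were searched for the interferon-stimulated response element, read as GAAA, any 2 bases and GAAA again, on either strand. It was in 2.26% of all windows and in those of 5 of the 8 called interferon genes with an entry (Igtp, Irgm1, Irgm2, Gbp2 and Gbp7), a count of genes and not of windows. Only called members were searched, so the matches do not set them apart from members that were not called. None of those 8 held TGATTGG, and none of the 5 class II genes held the interferon element. The motifs were not split in this way among the called class I genes, of which 8 had an entry. Windows of 3 of them held the Y box (H2-Q4, H2-T23 and Psmb9), and H2-T23 held the interferon element as well. The windows of 3 genes follow to set beside those of class II, with matches in capitals; Irgm1 holds overlapping matches:
Igtp: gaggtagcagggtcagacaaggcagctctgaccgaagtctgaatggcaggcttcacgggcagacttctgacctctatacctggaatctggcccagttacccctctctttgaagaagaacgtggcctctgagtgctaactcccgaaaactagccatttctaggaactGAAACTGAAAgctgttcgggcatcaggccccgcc
Irgm1: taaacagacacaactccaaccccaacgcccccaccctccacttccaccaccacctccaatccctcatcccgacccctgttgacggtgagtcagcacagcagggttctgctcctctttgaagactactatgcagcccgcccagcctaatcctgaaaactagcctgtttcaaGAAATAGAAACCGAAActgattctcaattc
Gbp2: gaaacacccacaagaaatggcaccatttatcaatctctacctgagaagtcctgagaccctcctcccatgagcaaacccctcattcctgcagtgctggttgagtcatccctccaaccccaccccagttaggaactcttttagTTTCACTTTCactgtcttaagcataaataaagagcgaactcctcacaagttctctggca
They lie at chr11:58199356-58199555 on the plus strand (Igtp), chr11:48871421-48871620 on the minus strand (Irgm1) and chr3:142620463-142620662 on the plus strand (Gbp2, where the match is on the other strand). Irgm1 stood at 20.8 to 26.5 against 45.2 to 79.7 and Gbp2 at 6.03 to 9.82 against 13.2 to 42.3 rescaled TPM; both are named for their sequences, after their values were seen.

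**Figure D3:**
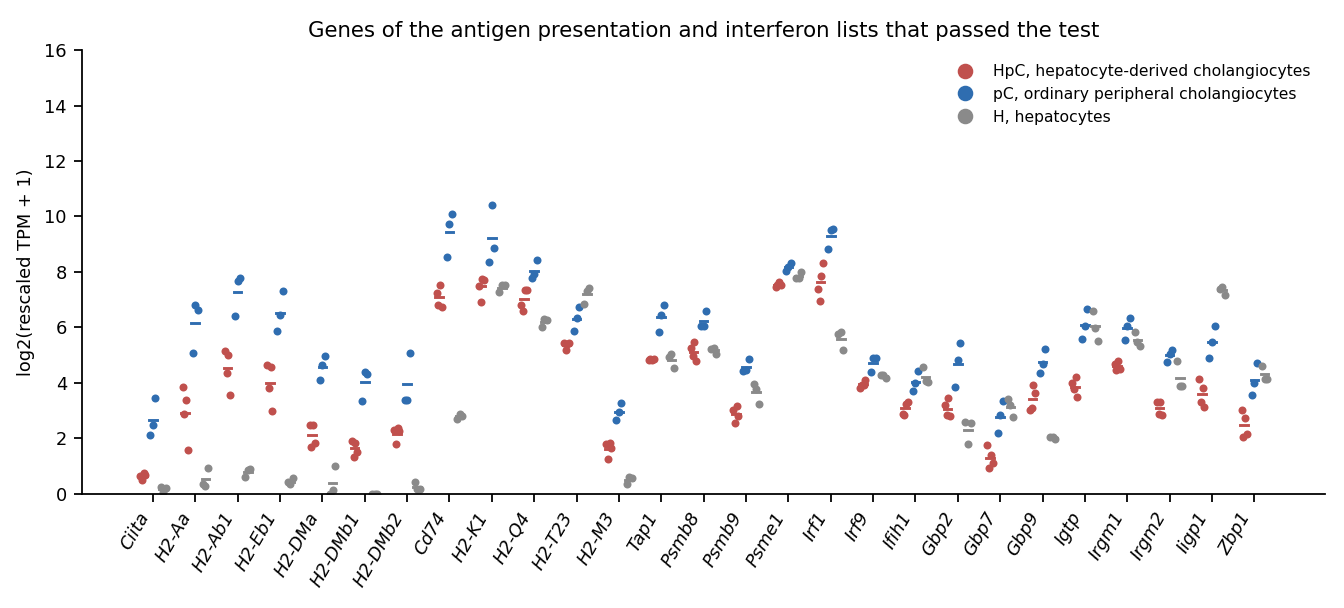
Levels of class II, class I and interferon genes that were lower in HpC, as log2(rescaled TPM + 1), with 1 point per library of HpC, pC and H and a line at each group mean. In each gene all HpC points lie below all pC points; the class II genes are lowest in H, whereas Iigp1 is highest there.

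Chemokines and cytokines were higher where they passed. Of 29 in the list 23 were tested, 4 were higher in HpC, against 1.99% of all genes, and none lower, with a median difference of 0.70. The count rests in part on the level filter, which Csf2 met only through HpC, and on Ccl2, whose call was not stable. Ccl20, which attracts CCR6-bearing lymphocytes, stood at 10.1, 9.96, 10.6 and 8.85 against 1.12, 1.12 and 3.66 (1.98 ± 0.26, adjusted p = 0.00284). Csf2, which encodes GM-CSF and is among the 4, stood at 3.25 to 7.36 against 0 to 0.457. It passed the level filter only through the HpC libraries, where it is high, so no test of its level is given. The monocyte attractant gene Ccl7 stood at 3.18 to 8.21 against 0 to 1.06 (1.99 ± 0.33, adjusted p = 0.00772), and pC alone did not meet the level filter there. Ccl2, a close relative of Ccl7, stood at 89.98, 69, 140.0 and 56.4 against 4.29, 1.11 and 36.3, with pC3 well above the other pC libraries. Its call ended when any 1 library but HpC4 or pC3 was left out (adjusted p up to 0.127) and without HpC1 and HpC2 (adjusted p = 0.117). Without those, 3 of the list were higher (Ccl7, Ccl20 and Il23a) and Csf2 was under the level filter. In mucosal defence, 2 of 15 tested genes (13.3%) were lower, against 2.55% of all genes. They were Pigr and the interleukin 17 receptor subunit gene Il17re (-0.90 ± 0.22, adjusted p = 0.0477). The call of Il17re ended when any 1 library but HpC1 or HpC4 was left out (adjusted p up to 0.176), without HpC1 and HpC2 (adjusted p = 0.0583) and on TPM as deposited (adjusted p = 0.0968).

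Collagen genes that passed were higher. Of 33 tested, 7 were higher, against 1.99% of all genes, and none lower, with a median difference of 0.31. Loxl2, which crosslinks collagen, stood at 8.08, 5.75, 6.37 and 6.19 against 0.549, 0.540 and 0.724 (2.24 ± 0.16, adjusted p = 0.000104) and passed whichever library was left out. The collagens themselves were low: Col3a1 stood at 4.86 to 11.7 against 2.50 to 2.87, Col12a1 at 1.11 to 2.01 against 0.0556 to 0.184, Col5a1 at 1.57 to 4.59 against 0.751 to 0.976 and Col6a2 at 1.46 to 3.44 against 0.612 to 0.692. The other called genes, named after their values were seen, were Pcolce, which enhances procollagen processing (0.93), and Col6a1 (0.91). The call of Col12a1 held whichever library was left out. Those of Col3a1 and Col6a2 ended when HpC3, pC1, pC2 or pC3 was left out (adjusted p up to 0.102 and 0.108), and that of Col5a1 when any 1 library but HpC2 was left out (adjusted p up to 0.118). On TPM as deposited these 3 missed the threshold (adjusted p = 0.115, 0.0801 and 0.132). Without HpC1 and HpC2, 7 genes of the list were higher and none lower; Col6a2 was not among them (adjusted p = 0.0575). Stellate cell and fibroblast markers were read beside these: of 14 tested, Col3a1 and Pdpn were higher and none lower, 12 differed by more than 0, and the median difference was 0.61. Without HpC2, 5 were higher and none lower; without HpC1 and HpC2, 2 were higher and 1 lower; on TPM as deposited, none was higher and 1 lower. Their summed level was 70.4 to 167 in HpC and 68.6 to 81.3 in pC. The fibrillar collagen genes Col1a1, at 11.7, 4.23, 8.05 and 8.30 against 1.5, 2.70 and 1.16 (adjusted p = 0.0546), and Col1a2, at 7.42, 2.65, 7.39 and 3.11 against 0.872, 2.05 and 1.05 (adjusted p = 0.0575), did not overlap between the groups but missed the threshold; both are named after their values were seen. The defining genes Pdgfrb and Lrat overlapped, at 0.424 to 2.54 against 0.271 to 0.701 and 0.120 to 1.36 against 0.320 to 0.411. The part of such cells in the result was not tested.

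Of 25 tested matrix proteases and inhibitors, 3 were higher and 1 lower, together 16%, against 4.54% of all genes. Besides Plat, the urokinase gene Plau stood at 6.93, 12.8, 20.3 and 9.54 against 1.03, 0.602 and 2.39 (2.49 ± 0.34, adjusted p = 0.00343). The epithelial metalloproteinase gene Mmp7 went the other way, at 25.9, 13.4, 12.5 and 14.2 against 31.4, 110.5 and 97.6 (-2.08 ± 0.40, adjusted p = 0.0178), and lost its call when HpC3, pC2 or pC3 was left out (adjusted p up to 0.0908). The counts without HpC1 and HpC2 were 3 higher and 1 lower.

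Of 39 tested actin cytoskeleton genes, 4 (10.3%) were higher, against 1.99% of all genes, and none lower, with a median of 0.17 (-0.25 on TPM as deposited). Msn, which encodes moesin, a linker of actin to the membrane, stood at 20.4, 17.6, 20.4 and 14.6 against 6.34, 5.92 and 4.68 (1.53 ± 0.18, adjusted p = 0.00149). The others were Cnn2 (1.5), Tpm1 (1.34) and Cald1 (0.75), the genes of calponin 2, tropomyosin 1 and caldesmon. Cnn2 lost its call when any 1 library but HpC1, HpC2 or HpC4 was left out, Tpm1 when HpC3, pC1 or pC2 was left out and Cald1 when any 1 library but HpC2 was left out (adjusted p up to 0.172, 0.0962 and 0.188), and all 3 on TPM as deposited (adjusted p = 0.196, 0.279 and 0.593). Among 17 S100 and annexin genes, the calcium-binding S100a6 was higher at 40.2, 122, 92.4 and 74.7 against 17.8, 9.97 and 16.2 (2.34 ± 0.34, adjusted p = 0.00413), and Anxa9 (-1.68) and Anxa4 (-0.84) were lower. Together these were 17.6% of the list, against 4.54% of all genes. Anxa4 lost its call when HpC2, pC1 or pC2 was left out (adjusted p up to 0.106) and without HpC1 and HpC2 (adjusted p = 0.105) or on TPM as deposited (adjusted p = 0.0851). Of 9 mesothelial markers Msln, Upk1b and Wt1 were higher and Gpm6a lower, together 44.4%, against 4.54% of all genes. Msln stood at 14.7 to 32.8 against 3.44 to 11.6, the defining marker Upk3b at 2.08 to 5.77 against 0.831 to 2.55, which did not pass, and the list summed to 482 to 1058 in HpC and 534 to 668 in pC, mostly Krt19, which is also a duct gene. The part of mesothelial cells in these results was not tested.

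Growth factor genes changed in both directions, with 5 higher and 4 lower of 39 tested, together 23.1%, against 4.54% of all genes. Igfbp4, which binds insulin-like growth factors, stood at 197, 126, 151.2 and 103 in HpC, 24.8, 35.7 and 22.2 in pC and 1914, 2418 and 2204 in H (2.34 ± 0.24, adjusted p = 0.00089). The receptor tyrosine kinase gene Axl stood at 12.7 to 28.2 against 2.32 to 6.11 (2.02 ± 0.32, adjusted p = 0.00616, but 0.067 on TPM as deposited). The ERBB ligand gene Nrg1 stood at 6.76 to 12.8 against 0.523 to 2.72 (1.97 ± 0.32, adjusted p = 0.00726). Igfbp3 (1.94) lost its call when pC1, pC2 or pC3 was left out (adjusted p up to 0.0621) and without HpC1 and HpC2 (adjusted p = 0.0658). Fgfr1, a fibroblast growth factor receptor gene, was lower, at 34.7, 24.3, 33.3 and 43.3 against 102, 113 and 119.2 (-1.72 ± 0.24, adjusted p = 0.00338). The others, named after their values were seen, were Igfbp5 (1.54), Pdgfd (-1.46), Pdgfa (-0.94) and Fgfr3 (-1.06). The list held 6 higher and 3 lower genes without HpC1 and HpC2.

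In the Wnt pathway 2 of 30 tested genes were higher and 2 lower, together 13.3%, against 4.54% of all genes. Beside Wnt10a, the secreted protein gene Dkk3 stood at 2.91 to 4.83 against 1.12 to 1.42 (1.08 ± 0.17, adjusted p = 0.00548, but 0.155 on TPM as deposited). The antagonist gene Sfrp5, counted among the lower genes, stood at 0.243, 0.0302, 0.180 and 0.0819 against 5.19, 8.09 and 2.53. It met the level filter only through libraries outside HpC, so no test of its level is given. The receptor gene Fzd7 (-0.73) lost its call when any 1 library but HpC2 was left out (adjusted p up to 0.145) and on TPM as deposited (adjusted p = 0.0753). Of 37 axon guidance genes, 3 were higher and 4 lower, together 18.9%, against the same 4.54%. Slit2, a secreted ligand of ROBO receptors, stood at 10.9, 6.40, 10.2 and 13.9 against 2.62, 0.725 and 0.469 (2.39 ± 0.32, adjusted p = 0.00308). The ephrin receptor gene Epha4 stood at 2.21 to 4.47 against 0.183 to 0.480 (1.74 ± 0.21, adjusted p = 0.00168), and the semaphorin co-receptor gene Nrp2 at 4.30 to 5.91 against 1.06 to 1.97 (1.37 ± 0.24, adjusted p = 0.0112). Epha7 (-1.24) and Sema5a (-1.16) were lower, as were Sema6a (-1.13) and Plxnb1 (-0.83), named after their values were seen. Nrp2 lost its call when pC1 or pC2 was left out, Epha7 when HpC3, pC1, pC2 or pC3 was left out and Sema5a when pC2 was left out (adjusted p up to 0.068, 0.116 and 0.0504), Nrp2 also on TPM as deposited (adjusted p = 0.0752).

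In the Notch pathway, 3 of 22 tested genes were lower and 1 higher, together 18.2%, against 4.54% of all genes. Beside Hes1, the receptor gene Notch2 stood at 22.2, 30.5, 27.8 and 32 against 46.4, 43.6 and 43.5 (-0.66 ± 0.15, adjusted p = 0.0322). The target gene Hey1 stood at 0.436 to 0.948 against 1.83 to 2.15 (-0.79). Lfng, a glycosyltransferase gene acting on Notch receptors and the 1 counted as higher, stood at 2.10 to 6.54 against 0.497 to 0.571. It passed the level filter only through the HpC libraries, where it is high, so no test of its level is given. Hey1 lost its call when HpC3, pC1, pC2 or pC3 was left out, and Notch2 when any 1 library but HpC1, HpC2 or HpC4 was left out (adjusted p up to 0.115 and 0.13). Notch2 missed the threshold on TPM as deposited too (adjusted p = 0.134). With HpC1 and HpC2 left out, Notch2 and Hey1 missed it (adjusted p = 0.0705 and 0.0523) and Lfng was under the level filter. Of 25 tested biliary transcription factors 2 (8%) were lower, against 2.55% of all genes, and none higher. Hhex stood at 91, 56.6, 82.1 and 91.3 against 203, 201 and 126 (-1.12 ± 0.23, adjusted p = 0.0219). Its call ended when HpC3, pC1 or pC2 was left out (adjusted p up to 0.112), and with HpC1 and HpC2 left out (adjusted p = 0.0706). Sox9, named after its values were seen, stood at 74.3 to 131 against 140.2 to 257 and did not pass (-0.96 ± 0.29, adjusted p = 0.107).

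Other lists are read against the 4.54% of all genes called in either direction. None passed among 36 nuclear genes of the respiratory chain (median 0.22, -0.19 on TPM as deposited and -0.06 without HpC1 and HpC2), 24 of cholesterol synthesis (-0.41, -0.82 as deposited, -0.17 without HpC1 and -0.68 without HpC2) or 19 of the hypoxia response (0.25, -0.16 as deposited and 0.12 without HpC2, where 1 gene passed). At these list sizes that share comes to no more than a few genes. In NRF2 and glutathione metabolism the antioxidant genes Prdx1 (0.72), Txnrd1 (0.65) and Gclc (0.57) were higher of 31, or 9.68%. All 3 calls ended on TPM as deposited (adjusted p = 0.583, 0.692 and 0.713), and without HpC3, pC2 or pC3 among others (adjusted p up to 0.171, 0.188 and 0.128). Prdx1 and Gclc also missed the threshold with HpC1 and HpC2 left out (adjusted p = 0.0922 and 0.0602). In glycolysis, 2 of 25 were higher and 2 lower, together 16%. The isozyme gene Aldoc stood at 3.10, 7.11, 2.48 and 1.90 against 21.8, 22.6 and 15.1 (-2.26 ± 0.38, adjusted p = 0.00864), and Ldhb, a lactate dehydrogenase gene, at 12.1 to 17.6 against 28 to 30.4 (-1.0 ± 0.16, adjusted p = 0.00718, but 0.1 with a pseudocount of 0.1). The lactate carrier gene Slc16a1 (0.79) and the pyruvate kinase gene Pklr (1.25) were higher, but not on TPM as deposited (adjusted p = 0.494 and 0.221). Slc16a1 lost its call when HpC3, pC1 or pC2 was left out and Pklr when any 1 library but HpC2 was left out (adjusted p up to 0.0963 and 0.213).

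Among 35 immediate early genes, which cell isolation can induce, Rgs2 and Ier2 (-1.01 ± 0.18, adjusted p = 0.0123) were lower. Together these were 5.71% of the list, near the 4.54% of all genes. Ier2 lost its call when pC1 or pC2 was left out (adjusted p up to 0.0736) and without HpC1 and HpC2 (adjusted p = 0.0539). Of 19 chaperones the small heat shock genes Hspb8 (1.79) and Hspb1 (2.06) were higher (10.5% of the list), Hspb1 at 101, 364, 100.5 and 112 against 40.8, 28.1 and 32.9. Hspb8 lost its call when pC2 or pC3 was left out and Hspb1 when pC1, pC2 or pC3 was left out (adjusted p up to 0.0851 and 0.106), and Hspb1 also on TPM as deposited (adjusted p = 0.0783). Pmaip1, a pro-apoptotic gene, was the 1 called of 20 p53 targets, at 14, 19.7, 36.5 and 30.9 against 6.23, 3.68 and 6.06 (1.99 ± 0.30, adjusted p = 0.00527, but 0.081 on TPM as deposited). Psat1 (2.49), a serine synthesis gene, was the 1 called of 25 unfolded protein and amino acid response genes, Ccne1 (0.92) of 29 cell cycle genes and Ctsh (0.99) of 32 lysosomal genes. The called share was 5% of the p53 targets and 4%, 3.45% and 3.13% of these lists, near or below 4.54%, so the counts are no result about the lists. Psat1, Ccne1 and Ctsh missed the threshold with HpC1 and HpC2 left out (adjusted p = 0.0782, 0.122 and 0.0667), where Psat1 differed by 1.66, and without HpC1 or HpC3 alone, among others (adjusted p up to 0.163, 0.16 and 0.0913). Ccne1 and Ctsh did so on TPM as deposited as well (adjusted p = 0.218 and 0.357).

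In secretin, purinergic and calcium signalling, Rgs4 was higher (2.01 ± 0.22, adjusted p = 0.0012) and Rgs2 and Prkar2b (-1.04) were lower of 24 tested, together 12.5%, against 4.54% of all genes. Prkar2b lost its call when pC1 or pC2 was left out (adjusted p up to 0.0774). Of 28 glycosylation genes the sialyltransferase genes St3gal5 (-1.58 ± 0.29, adjusted p = 0.0143) and St6gal1 (1.0 ± 0.21, adjusted p = 0.0235) were called, in opposite directions, together 7.14%. St3gal5 lost its call when pC1 or pC2 was left out and St6gal1 when HpC3, pC1, pC2 or pC3 was left out (adjusted p up to 0.0774 and 0.111), the latter also on TPM as deposited (adjusted p = 0.321). Of 37 splicing regulators Khdrbs3 (-0.67) was the 1 called, or 2.70%, below the share of all genes. It lost its call when HpC3, pC1 or pC2 was left out (adjusted p up to 0.12) and without HpC1 and HpC2 (adjusted p = 0.108) or on TPM as deposited (adjusted p = 0.0997).

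**Figure D4:**
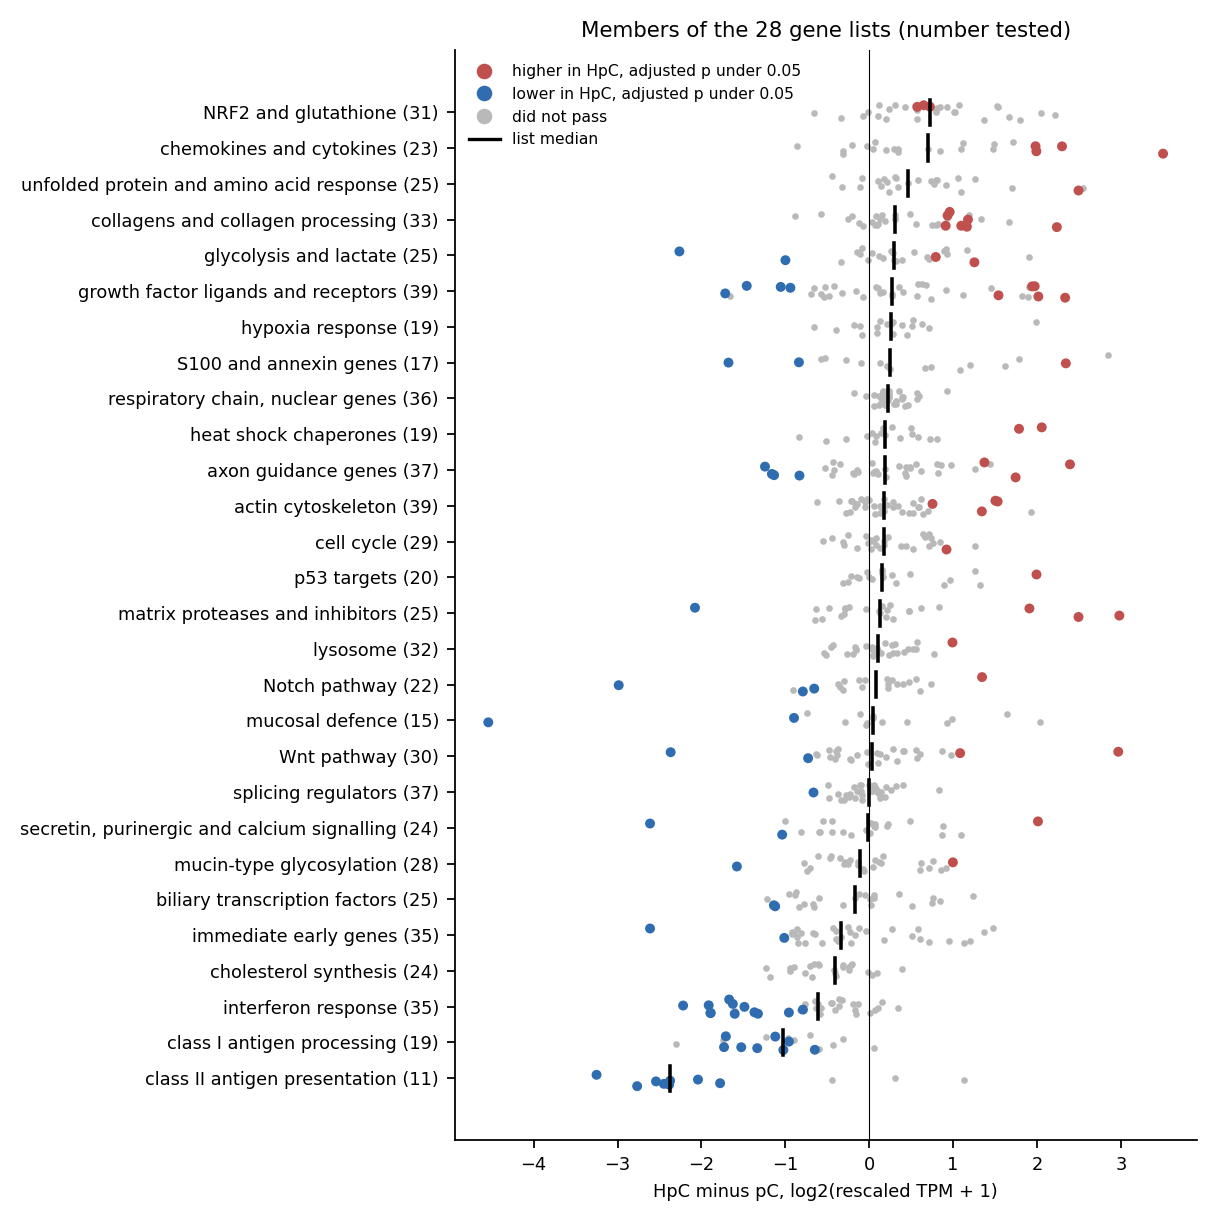
Difference between HpC and pC on the log2(rescaled TPM + 1) scale for the tested members of the gene lists, 1 point per gene, with called genes coloured by direction and the list median marked. The class II, class I and interferon lists have medians of -2.37, -1.02 and -0.61 and hold no gene called higher.

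Of 649 long non-coding genes tested, 6 were higher and 10 lower, against 1.99% and 2.55% of all genes. The largest fall was that of 2700069I18Rik, at 4.50, 2.66, 1.70 and 4.67 against 20, 20.3 and 25.1 (-2.44 ± 0.26, adjusted p = 0.00102), which passed whichever library was left out. Gm20400 had the largest rise, at 81.5, 88.9, 155 and 185 against 29.6, 26.3 and 61.6 (1.69 ± 0.35, adjusted p = 0.0232); its call ended when HpC3, pC1 or pC2 was left out (adjusted p up to 0.118) and on TPM as deposited (adjusted p = 0.194). Gm13441 fell by 1.41 on the log2 scale, and its call ended when any 1 library but HpC1, HpC2 or HpC4 was left out (adjusted p up to 0.199). 4933431E20Rik (-1.29) lost its call when HpC3, pC1, pC2 or pC3 was left out (adjusted p up to 0.0702) and without HpC1 and HpC2 (adjusted p = 0.0637). Slmapos2 (1.38) and D630011A20Rik (1.33) were higher, with calls that ended when any 1 library but HpC1, HpC2 or pC3 was left out and when any 1 library but HpC1 or HpC2 was left out (adjusted p up to 0.178 and 0.153) and on TPM as deposited (adjusted p = 0.258 and 0.209). The sources used here do not say whether reads were assigned by strand, so overlapping genes on the other strand cannot be told apart from these.

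Among single transcripts, 564 of 35643 tested (1.58%) differed, 250 higher (0.701%) and 314 lower (0.881%). They belonged to 446 genes; 484 were transcripts of 367 genes that were also called, and 80 came from 79 genes that were not. Conversely, 304 called genes had no called transcript, and no gene had called transcripts in both directions. By annotated type, 2.11% of 21475 protein-coding transcripts were called, 1.02% of 5008 processed transcripts, 0.921% of 1846 nonsense-mediated decay transcripts and 0.662% of 5586 retained introns. In the same direction, 169 of the 564 passed again without HpC1 and HpC2.

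The share of a gene's TPM taken by each transcript was tested for 21795 transcripts of 5076 genes by the log2 ratio of the transcript to the rest of its gene. Of these 6 passed (0.0275%), 4 higher (0.0184%) and 2 lower (0.00918%) in HpC, and 1686 had an unadjusted p under 0.05. Both transcripts of Onecut1 hold the same ratio with opposite sign, so it counts once in each direction. Rbms1-207 and Cald1-204, at 0 in every pC and H library, entered this test only through HpC, so their calls are no result. The pair of transcripts of Onecut1, one of the floxed genes, came first. Onecut1 lies on chromosome 9 (mm10, plus strand). Onecut1-201 encodes HNF6 and starts with the exon from 74861921 to 74863401. Onecut1-202 is annotated as a processed transcript without a coding region and starts with its own exon, 74866484 to 74866639, inside the intron of Onecut1-201. Both continue in an exon that begins at 74889306. Their junctions are shown because they separate the transcripts, with the last 30 bases of each first exon in capitals and the first 30 of the shared exon in lower case. The parts in capitals were found in 0 other annotated transcripts:
Onecut1-201: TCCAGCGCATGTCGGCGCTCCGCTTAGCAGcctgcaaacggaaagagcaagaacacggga
Onecut1-202: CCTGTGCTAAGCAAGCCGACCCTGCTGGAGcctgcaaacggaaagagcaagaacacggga

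Onecut1-201 took 23.3%, 19.5%, 19.96%, 20.04% of the gene's TPM in HpC1 to HpC4, 77.4%, 81.4%, 73.5% in pC1 to pC3 and 15.2%, 9.31%, 14.1% in H1 to H3. All 7 libraries of mice with Cre were thus at or below 23.3%, and all 3 of mice without Cre at or above 73.5%. In level, Onecut1-201 stood at 8.78, 3.77, 4.96 and 9.27 against 63.4, 51.3 and 53.5 rescaled TPM (-2.96 ± 0.35, adjusted p = 0.00433). Onecut1-202 stood at 28.9, 15.5, 19.9 and 37 against 18.5, 11.7 and 19.3, which overlapped and did not pass (0.55 ± 0.36, adjusted p = 0.632). The log2 ratio of Onecut1-202 to Onecut1-201 was higher in HpC by 3.55 ± 0.24 (limma adjusted p = 0.00052), and by 3.65 without HpC1 and HpC2 (adjusted p = 0.0305). It passed whichever library was left out (adjusted p up to 0.00823). Summed over both, Onecut1 did not pass (-1.22 ± 0.34, adjusted p = 0.0805). The sources used here do not say which part the floxed allele loses, and 50-base reads within the shared exon cannot be assigned to either transcript.

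**Figure D5:**
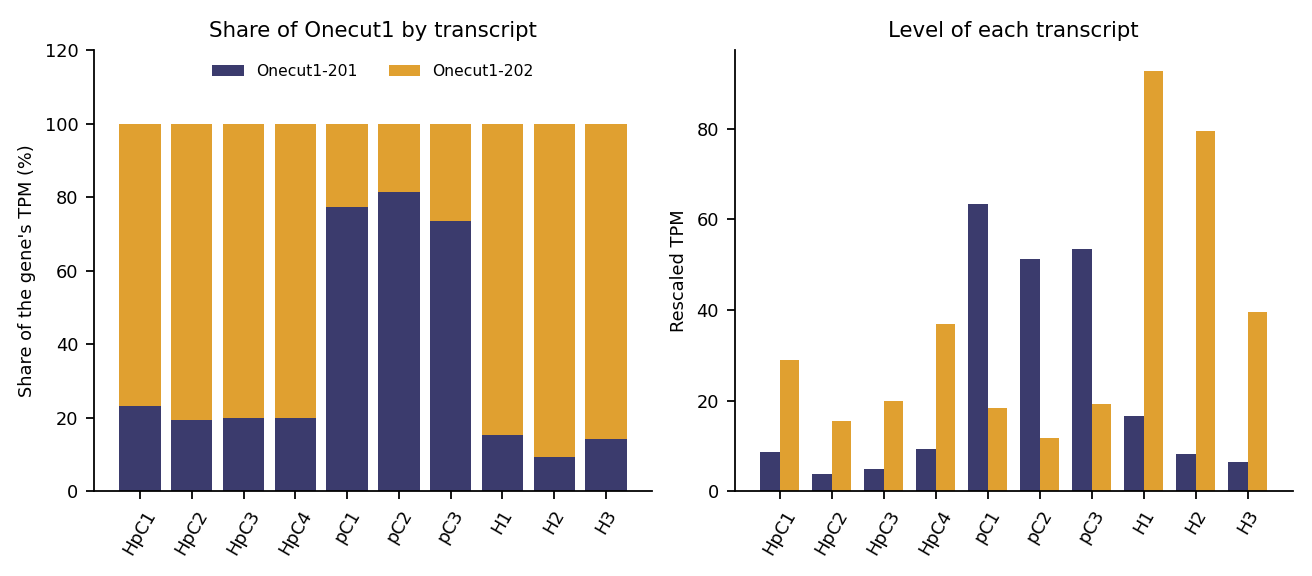
Share of the Onecut1 TPM taken by each of its transcripts in percent, and the rescaled TPM of each transcript, in each of the 10 libraries. Onecut1-201 is high in pC1 to pC3, at 51.3 to 63.4 rescaled TPM, and Onecut1-202 overlaps between HpC and pC.

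Rbpj, the other floxed gene, stood at 4.09 to 6.24 in HpC, 5.51 to 6.82 in pC and 1.20 to 1.59 in H and did not pass (-0.30 ± 0.17, adjusted p = 0.398). Its transcript Rbpj-203 stood at 3.57, 3.59, 3.56 and 5.07 against 5.17, 5.57 and 6.28 and did not pass either (adjusted p = 0.393). Values are estimated over whole transcripts and do not check the loss of part of the gene.

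Rbms1-207, also called in the share test, is a transcript of an RNA-binding protein gene. It is 224 bases long, on the minus strand of chromosome 2, with its own first exon from 60888008 to 60888055. It took 11%, 9.96%, 5.09%, 3.46% of the gene's TPM in HpC and was listed at 0 in every pC and H library. Its level was 23.6, 29.4, 16 and 9.95 in HpC. The transcript passed the level filter only through the HpC libraries, where it is high, and had no value without HpC1 and HpC2, so no test of its level is given. The gene as a whole did not pass (0.40, adjusted p = 0.543). For so short a transcript few reads give a high TPM. Rbms1-207 entered the share test only through HpC as well, so its call there is no result. That call also ended when pC1, pC2 or pC3 was left out (adjusted p up to 0.083) and without HpC1 and HpC2 (adjusted p = 0.091). Its junction is shown because it tells this transcript from the rest of the gene, with the last 30 bases of its own exon in capitals:
Rbms1-207: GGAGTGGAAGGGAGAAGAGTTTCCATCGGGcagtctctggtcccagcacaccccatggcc

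Cald1-204, a protein-coding transcript of the caldesmon gene, stood at 9.38, 3.27, 10.2 and 7.38 in HpC and was listed at 0 in every pC and H library. It too passed the level filter only through HpC and had no value without HpC1 and HpC2, so no test of its level is given. Its share was 2.16 percentage points higher, but it entered the share test only through HpC, so its call there is no result. That call also ended when any 1 library but HpC1, HpC2 or HpC4 was left out (adjusted p up to 0.0935) and without HpC1 and HpC2 (adjusted p = 0.0868). Asns-207 and Dtx1-204 passed in the share test, but their shares overlapped between the groups. Palld-203, a transcript of the gene of palladin, an actin-binding protein, stood at 3.86, 4.92, 8.65 and 6.91 against 0.664, 0.199 and 0, while the gene as a whole did not pass (adjusted p = 0.851). Dab2-206, of an endocytic adaptor gene, stood at 25.3, 11.5, 26.2 and 16.6 against 0, 0.324 and 2.10, and the Dab2 gene as a whole was higher (2.24, adjusted p = 0.00149). The shares of Palld-203 and Dab2-206 did not pass (adjusted p = 0.061 and 0.0971); both are named after their values were seen. Palld-203 and Dab2-206 passed the level filter only through the HpC libraries, where they are high, so no test of their level is given. Transcripts were also called in genes far from the threshold. Ssb-205 stood at 20.9, 20.7, 20.7 and 19.9 against 9.49, 12.5 and 10.4 (0.87 ± 0.16, adjusted p = 0.0299), Mprip-203 at 12, 12.4, 12.4 and 12.6 against 6.84, 7.25 and 6.80 (0.74 ± 0.14, adjusted p = 0.0343) and Gm10719-202 at 5.39 to 7.63 against 10.9 to 18.3 (-1.12 ± 0.23, adjusted p = 0.0475). The groups did not overlap in these 3, as was so for all 671 called genes, so this is no result. Each missed the threshold with HpC1 and HpC2 left out (adjusted p = 0.108, 0.088 and 0.225) and without HpC1, HpC3 or any 1 pC library, among others (adjusted p up to 0.138, 0.148 and 0.188). They did so on TPM as deposited as well (adjusted p = 0.5, 0.596 and 0.0813).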

How the data were processed

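RNA from 10 sorted mouse liver cell libraries was measured by single-end 50-base sequencing, per the series' design text. The authors deposited kallisto TPM per Ensembl transcript, per the labels and the submitters' processing notes, which also name DESeq and mm10 without versions or roles; TPM carry no read depth, so no count test was made. Of 85276 transcripts 81927 matched GENCODE M21 by ID, and the 3349 others (4.22% to 9.06% of the TPM) were left out. TPM were summed over 29972 genes, rescaled by a trimmed mean of log ratios (30% of ratios and 5% of levels trimmed) and tested on log2(rescaled TPM + 1) with limma 3.58.1 in R 4.3.3 (trend), all 10 libraries in 1 fit, with Benjamini-Hochberg adjustment at 0.05. The filter was 1 TPM in 3 libraries. Shares used genes with a mean of at least 10 TPM. Tables were made with Python 3.11.15 and pandas 2.3.3, and the test was tried on simulated data.

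Named protein-coding genes were the 15 largest called rises and falls, without overlap, called again without HpC1 and HpC2 and with a mean of at least 10 rescaled TPM in the higher group, then at most 5 called members of each of 28 gene lists. Long non-coding genes were the 3 largest called rises and falls at 5 rescaled TPM. Transcripts called in the share test without overlap were named, and up to 5 called transcripts of genes with an adjusted p over 0.2. The groups compared, lists and members were chosen with earlier results of these data known. Ages differ within HpC and within pC, so these libraries come from different mice; H2 and H3 are of 1 age, and whether they are separate animals is not stated. By an exact permutation test over the 35 splits, HpC and pC did not differ past 0.05 in the mitochondrial share (p = 0.914), genes detected (p = 0.514), scaling factor (p = 0.229) or age (p = 0.857). Promoter sequences are from RefSeq and junctions from GRCm38 with GENCODE M21. Some genes that the rule would name are not reported here. Alternatives were a fit of HpC and pC alone, other scalings, pseudocounts and filters, array weights, age, the replicate number as a block, and leaving out libraries.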

Additional observations from a re-analysis of the deposited data

Results flagged for a closer look

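Of 166 quantities looked at within the 4 HpC libraries, 17 held 1 library that lay apart from the other 3, by a gap beyond the 95% critical value of Dixon's test, which chance exceeds in about 1 of 20 groups. Of single genes, Dpysl3 stood at 14.7 in HpC2 and 22.8 to 24.1 in the other 3, Rhoj at 8.29 in HpC1 and 5.51 to 5.85 in the other 3, and Ccl7 at 8.21 in HpC3 and 3.18 to 3.58 in the other 3. Hspb1 stood at 364 in HpC2 and 100.5 to 112 in the other 3, Mmp7 at 25.9 in HpC1 and 12.5 to 14.2 in the other 3, and Lfng at 6.54 in HpC1 and 2.10 to 2.15 in the other 3. The share of Onecut1-201 was 23.3% in HpC1 and 19.5% to 20.04% in the other 3, and that of Onecut1-202 was 76.7% in HpC1 and 79.96% to 80.5% in the other 3. The mitochondrial share was 5.78% in HpC1 and 13.3% to 14.4% in the other 3.

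Among summed levels of gene lists, HpC1 stood apart in pancreatic acinar genes (351500.0 against 747 to 1603 rescaled TPM), pancreatic islet genes (473 against 5.30 to 14.8), splicing regulators (2705 against 3314 to 3419) and axon guidance genes (451 against 629 to 638). HpC2 stood apart in stratified squamous genes (43350.0 against 266 to 977), neutrophil genes (19.2 against 2.42 to 4.01), p53 targets (1087 against 539 to 628) and glycolysis genes (2375 against 1295 to 1390.0).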

How the results depend on the processing

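Called genes are given in percent of those tested, followed by counts of transcripts and of transcript shares, with main values of 1.99% higher and 2.55% lower, 250 higher and 314 lower, and 4 higher and 2 lower. With the HpC and pC libraries alone they were 1.4% higher and 1.32% lower, 115 higher and 126 lower, and 1 higher and 1 lower. Array weights gave 5.63% higher and 6.54% lower of genes and 530 higher and 591 lower transcripts. Without HpC1 and HpC2 there were 2.18% higher and 1.68% lower of genes, 114 higher and 110 lower transcripts, and 1 higher and 1 lower share. TPM as deposited gave 0.975% higher and 2.76% lower of genes and 120 higher transcripts. A pseudocount of 0.1 gave 138 lower transcripts and 1 lower share, one of 5 gave 38 higher and 12 lower shares, a gene mean of at least 30 TPM gave 7 higher shares, and shares in percent gave 2 higher. With the replicate block the counts were 1.82% higher and 2.06% lower, 53 higher and 46 lower, and 2 higher and 1 lower; deviations of same-numbered HpC and pC libraries correlated by -0.033, 0.065 and -0.018, so the numbers were not taken as pairs. Leaving out 1 library at a time gave 0.95% to 2.49% of genes higher and 0.915% to 3.1% lower, 63 to 299 and 32 to 336 transcripts, and 1 to 7 and 1 to 6 shares. Of 104 named genes that passed, the call was lost by 43 of 103 still tested without pC2, 36 without pC1, 31 without HpC3, 28 without pC3 and 20 of 100 without HpC1 and HpC2. Of the 104, 36 lost the call with the HpC and pC libraries alone, 22 with the replicate block, 27 on TPM as deposited, 19 with no level filter, 18 with a pseudocount of 0.1, 8 with age as a covariate, 6 with scaling by the median of ratios, 4 with a pseudocount of 5 and 1 with array weights. The causes were not tested. Read depth is unknown, so levels near 0 carry no counting interval.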
